A study of Sus scrofa with 22 samples.

Results

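The genes described here carry the vitamin D signal and move calcium across the gut wall: VDR, RXRA, CYP27A1, CYP24A1, TRPV6, S100G and ATP2B1. They were taken by gene symbol, and the list was drawn up with earlier results of these data known. Of the 7 symbols, 6 named a row among the 24358 genes counted in every library. CYP24A1 had no count in any library, and the other 5 genes (VDR, RXRA, CYP27A1, S100G and ATP2B1) passed the filter on low counts and were tested. TRPV6 was not analysed here under that name. The Ensembl identifier that a table of gene names pairs with TRPV6, ENSSSCG00000016469, carries the name TRPV5 in the deposited counts, and its values are given below as those of the row named TRPV5.

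RNA was sequenced from the jejunal mucosa of 22 Ossabaw pigs, a breed prone to obesity and used as a model of metabolic disease. After a run-in, all pigs were fed for 6 months on 1 of 2 isocaloric dietary patterns with 38% of energy as fat, 47% as carbohydrate and 15% as protein. The group here called WD_S (n = 7, labelled Atherogenic + Statin) ate a Western pattern, with butter fat, cholesterol and refined carbohydrate, and received atorvastatin, an inhibitor of cholesterol synthesis. The HHD_S group (n = 8) ate a heart healthy pattern, with plant oils, whole grains, fruit, vegetables and fiber, took fish oil capsules of 1000 mg, and received atorvastatin. The HHD group (n = 7) had the same heart healthy pattern and fish oil without the drug. Atorvastatin was given at 20 mg per day for 3 months and 40 mg per day for the next 3 months. Pigs on the Western pattern without the drug were not analysed here, so the Western pattern is seen only together with atorvastatin. The series text attaches the abbreviation used in the WD_S sample titles to the Western pattern without drug, whereas the diet label of each of these samples names the statin; the diet label was followed. Diets with fish oil also differed from the Western pattern in fat, fiber and carbohydrate at once, so a difference between WD_S and HHD_S belongs to the whole pattern.

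Libraries held 15.3 M to 31.6 M counts, and levels are given as CPM, a share of the counts of the library, after TMM scaling, which corrects for differences in library composition. CPM is not adjusted for gene length, so levels are compared between pigs and not between genes. The names of the deposited tables carry a library number, 3 (13 libraries) or 4 (9 libraries), here called pool 3 and pool 4, and every group had pigs in both. Enterocyte markers were present in all libraries, with a summed level of 19745 to 53815 CPM over 10 genes, led by ANPEP and APOB. Pancreas and liver markers summed to 3.61 to 32.4 CPM over 6 genes, with PRSS2 at 0 in all 22 libraries. The jejunum cannot be told from neighbouring small intestine by these lists, since proximal and distal markers were both detected. The tissue is a mixture, and in such bulk samples fewer cells of a type and less RNA per cell cannot be told apart.

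Vitamin D is hydroxylated to 25-hydroxyvitamin D and then to the active hormone calcitriol, which binds the vitamin D receptor VDR. VDR pairs with the retinoid X receptor RXRA and, on DNA, raises the transcription of its targets, among them the degrading enzyme CYP24A1 and the genes of calcium uptake. In enterocytes calcium enters from the lumen through the channel TRPV6, is carried through the cytosol by calbindin-D9k, the product of S100G, and leaves at the basolateral side through the plasma membrane pump encoded by ATP2B1. A second, passive route runs between the cells through claudins.

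None of the 5 tested genes passed the test of a difference between dietary groups, and the larger differences lay between pigs of the same group. The receptor genes and ATP2B1 varied moderately and CYP27A1 varied more. The group ranges of each of these genes overlapped in all 3 comparisons. S100G ranged from 2.88 to 200.1 CPM over the 22 pigs, a span of 69.4-fold that was present within the groups. The plot of levels by group shows each pig.

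**Figure D1:**
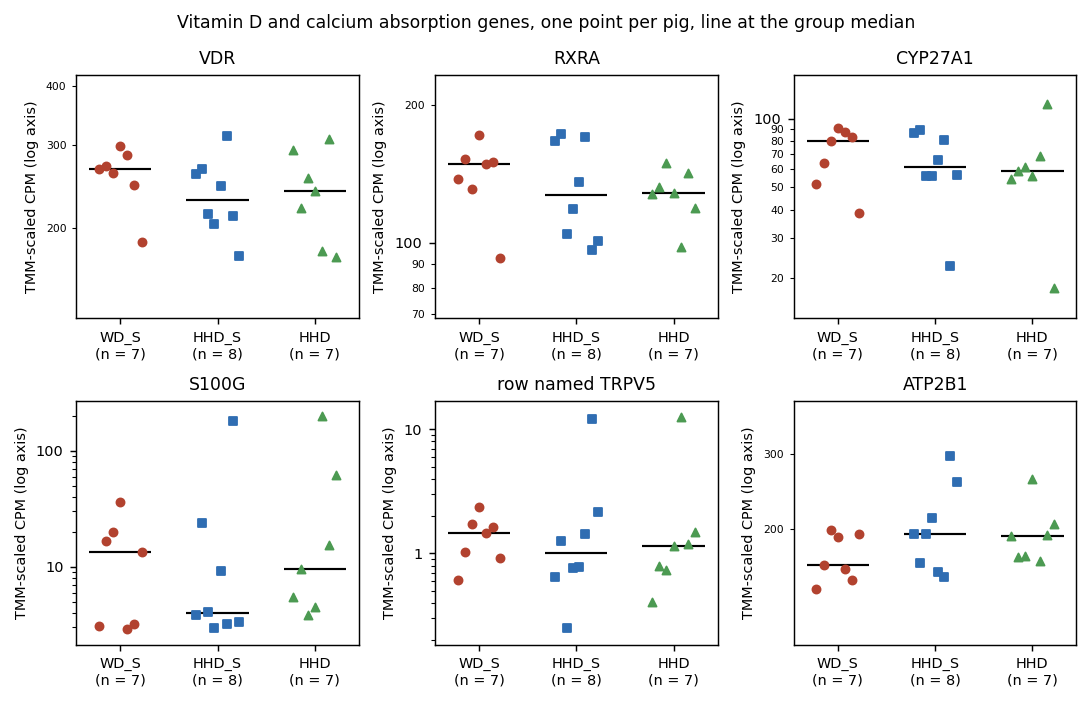
TMM-scaled CPM (log axis) of 5 tested genes and of the row named TRPV5 in each pig of the WD_S (n = 7), HHD_S (n = 8) and HHD (n = 7) groups, with a line at the group median. All groups overlap in every panel, and S100G and the row named TRPV5 reach their highest values in 1 HHD pig and 1 HHD_S pig.

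VDR (ENSSSCG00000020864; RefSeq span on Sscrofa11.1, chromosome 5, 78205807 to 78266505) encodes the receptor that calcitriol binds. Its level was 187, 267 and 299 CPM (lowest, median and highest pig) in WD_S, 175, 230 and 313 CPM in HHD_S, and 174, 239 and 309 CPM in HHD. The lowest pigs of the 3 groups were close to each other, and the ranges overlapped almost completely. Group means were 260 ± 36.2 CPM (SD, n = 7) in WD_S, 236 ± 43.6 CPM (SD, n = 8) in HHD_S and 238 ± 51.9 CPM (SD, n = 7) in HHD. The WD_S level was 1.11-fold that of HHD_S, with a 95% interval of 0.905 to 1.36 (log2 0.15, SE 0.141, edgeR quasi-likelihood adjusted p = 0.9995). HHD_S and HHD were closer still, at 0.997-fold with an interval of 0.815 to 1.22. A p that misses the threshold does not show that the groups were alike, and these intervals give the changes that remain possible.

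RXRA (ENSSSCG00000038220; chromosome 1, 273698842 to 273797622) encodes the partner with which VDR binds DNA, and which also serves other nuclear receptors. Its level was 92.6, 149 and 172 CPM in WD_S, 96.3, 127 and 172 CPM in HHD_S, and 98.1, 128 and 149 CPM in HHD, again as lowest, median and highest pig. Every group had at least 1 pig below 100 CPM, and the ranges overlapped. WD_S was 1.06-fold HHD_S (0.860 to 1.31), HHD_S was 1.05-fold HHD (0.847 to 1.29) and WD_S was 1.11-fold HHD (0.888 to 1.39).

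CYP27A1 (ENSSSCG00000016199; chromosome 15, 120809886 to 120852196) encodes a mitochondrial sterol hydroxylase that acts on vitamin D at position 25 and on cholesterol in bile acid synthesis. Its level was 38.6, 80.2 and 91.0 CPM in WD_S, 22.7, 61.2 and 89.4 CPM in HHD_S, and 18.1, 59.3 and 115 CPM in HHD. The lowest pig stood well below its group in HHD_S (replicate 7, the next pig at 55.9 CPM) and in HHD (replicate 7, the next pig at 54.5 CPM). WD_S was 1.09-fold HHD_S (0.710 to 1.66; log2 0.12, SE 0.295), and HHD_S was 1.02-fold HHD (0.673 to 1.56; log2 0.04, SE 0.292). The intervals are wider than for VDR or RXRA because pigs differed more. The residual SD within groups and pools was 0.654 on the log2 scale for CYP27A1, against 0.276 for VDR and 0.296 for RXRA. Among 2126 genes within 0.5 log2 units of its mean level, CYP27A1 had the 59th largest residual SD, where the median was 0.226.

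CYP24A1 (ENSSSCG00000007486; chromosome 17, 55110546 to 55130328), the enzyme that inactivates calcitriol and is among the most strongly induced VDR targets, had 0 counts in all 22 libraries. A count of 0 allows a level of up to 0.102 to 0.199 CPM in a single library, set at 3 counts, and up to 0.00643 CPM over all libraries together. These limits cover counting error only. No group comparison was possible for this gene.

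S100G (ENSSSCG00000012147; chromosome X, 13107611 to 13114213) encodes calbindin-D9k, the calcium-binding protein that ferries calcium through the enterocyte. In the 7 WD_S pigs it was 3.07, 16.7, 19.9, 36.4, 2.88, 3.20 and 13.5 CPM (replicates 1 to 7). In the 8 HHD_S pigs it was 3.88, 24.1, 4.04, 2.99, 9.12, 3.23, 181 and 3.36 CPM. In the 7 HHD pigs it was 5.43, 9.66, 3.81, 4.51, 200.1, 15.3 and 62.0 CPM. Most pigs of each group were low or intermediate, and 3 pigs, HHD replicates 5 and 7 and HHD_S replicate 7, held 70.6% of the CPM summed over all pigs. The groups overlapped, and their order depended on the summary: by median, WD_S was highest (13.5 CPM), then HHD (9.66 CPM) and HHD_S (3.96 CPM), whereas by mean HHD was highest (43.0 ± 72.3 CPM, SD, n = 7), then HHD_S (29.0 ± 61.9 CPM, SD, n = 8) and WD_S (13.7 ± 12.3 CPM, SD, n = 7). The sex of each pig was not used here, although the gene lies on the X chromosome.

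The fitted log2 fold change of S100G was -1.17 in WD_S against HHD_S (SE 1.24, 95% interval -3.77 to 1.43), -0.47 in HHD_S against HHD (SE 1.24, -3.06 to 2.13) and -1.64 in WD_S against HHD (SE 1.16, -4.06 to 0.78). None passed the test (edgeR quasi-likelihood adjusted p = 0.9995, 0.9993 and 0.9997). Single pigs set the sign: without HHD_S replicate 7 the first contrast was 0.75, and without HHD replicate 5 the second was 0.86 and the third 0.71. With limma, run with quality weights on the libraries, the first contrast was -0.08 and the third -0.64. In a fit of only the 2 groups compared the first was -0.24. Within pool 3 alone the first 2 contrasts were -1.70 and 1.16, and within pool 4 alone 1.42 and -4.28. Their directions did not hold across pools, but the pools also split the highest pigs. In pool 4 the HHD group was only 2 pigs, replicates 4 and 5, and HHD_S replicate 7 was in pool 3. The residual SD of S100G was 1.98 on the log2 scale, the 27th largest of 13626 genes tested, where the median gene had 0.298. Among 1759 genes within 0.5 log2 units of its mean level it ranked 3. The spread of S100G was therefore large for its level, and it is given here as a description.

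The row named TRPV5 (ENSSSCG00000016469) is uncertain in identity. TRPV5 and TRPV6 are neighbouring, closely related calcium channel genes whose RefSeq spans on chromosome 18 overlap (7285186 to 7341965 and 7332253 to 7348383), and the 2 sources give this identifier different names. Its level was 0.607, 1.47 and 2.36 CPM in WD_S, 0.249, 1.02 and 12.1 CPM in HHD_S, and 0.409, 1.14 and 12.6 CPM in HHD, from 5 to 288 counts per library. The highest pigs were HHD replicate 5 and HHD_S replicate 7, the same 2 pigs that were highest for S100G, and the next pig was at 2.36 CPM.

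ATP2B1 (ENSSSCG00000027898; chromosome 5, 92935688 to 93061406) encodes the pump that extrudes calcium on the blood side. Its level was 145, 164 and 199 CPM in WD_S, 155, 195 and 296 CPM in HHD_S, and 168, 193 and 262 CPM in HHD. The 3 highest pigs, HHD_S replicates 7 and 8 and HHD replicate 4, were on the heart healthy pattern, but most pigs of all groups lay in a common range. Mean levels were 172.5 ± 22.3 CPM in WD_S (n = 7), 204.5 ± 50.04 CPM in HHD_S (n = 8) and 195.3 ± 32.6 CPM in HHD (n = 7), with errors as SD. WD_S was 0.841-fold HHD_S (95% interval 0.687 to 1.03, log2 -0.25, SE 0.141). Of all contrasts of the 5 genes it had the smallest unadjusted p (0.0906, edgeR quasi-likelihood adjusted p = 0.9995). HHD_S was 1.05-fold HHD (0.859 to 1.28).

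**Figure D2:**
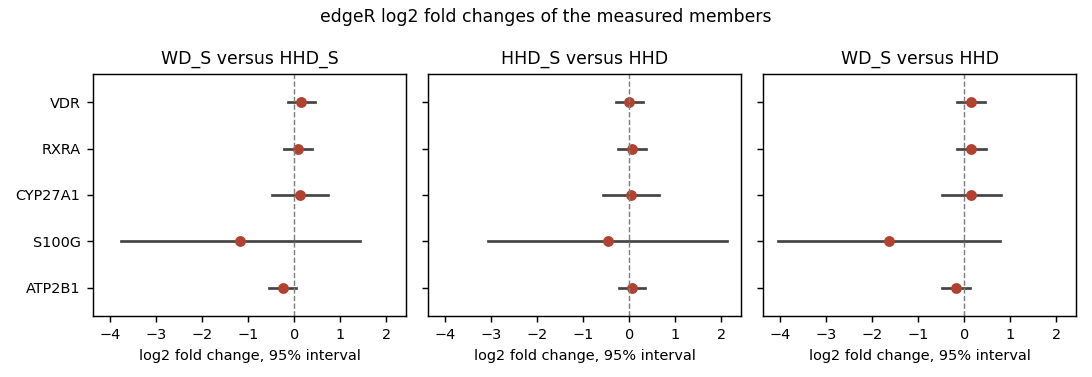
edgeR log2 fold changes (points) with 95% intervals (lines) of the 5 tested genes in the 3 contrasts, with a dashed line at 0. Every interval spans 0, and those of S100G are the widest.

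Counted together, 0 of 5 genes passed an adjusted p of 0.05 in WD_S against HHD_S, where 0% of the 13626 genes tested did. In HHD_S against HHD the counts were likewise 0 of 5, beside 0% of all genes. In WD_S against HHD 0 of 5 passed beside 0.00734% of all genes, and over the 3 groups jointly 0 of 5 passed beside 0.00734%. At an unadjusted p under 0.05, 0 of 5 passed in each contrast, beside 2.92%, 1.81% and 3.41% of all genes. After adjustment limma called 0 of the 5. DESeq2 also called 0, but it gave no adjusted p for S100G. WD_S against HHD differs in diet and drug at once and shares its libraries with the other contrasts.

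The neighbouring pathway was followed through 69 further genes in 7 lists, of which 50 could be tested. No gene passed the adjusted test in any contrast. In WD_S against HHD_S, 28 of 50 were higher and 22 lower, where 47.1% of all genes were higher, and the median log2 fold change was 0.0075 against -0.01 for all genes. In HHD_S against HHD, 31 were higher and 19 lower, where 52.6% of all genes were higher, with a median of 0.03 against 0.0088. In WD_S against HHD, 29 were higher and 21 lower, where 49% of all genes were higher, with a median of 0.03 against -0.0041.

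Among 8 genes of vitamin D activation, carriage and uptake, 7 could be tested. CYP2J34, of a cytochrome P450 family some of whose enzymes hydroxylate vitamin D, averaged 754 ± 189, 663 ± 215 and 648 ± 185 CPM in WD_S, HHD_S and HHD (SD; n = 7, 8 and 7). CUBN, the endocytic receptor cubilin, which takes up vitamin D binding protein in the kidney and the vitamin B12 complex in the gut, spanned 0.568 to 202 CPM over the pigs. CYP27B1, the enzyme that makes calcitriol, lies outside the rule for named genes and was added after its values were seen; it averaged 2.91 ± 0.409, 2.81 ± 0.576 and 3.13 ± 0.790 CPM in that order.

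The 12 receptor partners and coregulators were all tested, with log2 fold changes from -0.12 to 0.24 over the 3 contrasts. NCOR1, a corepressor of nuclear receptors, had 157 ± 16.0, 149 ± 11.4 and 145 ± 20.6 CPM in WD_S, HHD_S and HHD (SD, n = 7, 8 and 7). NCOA1, a coactivator, had 141 ± 22.9, 139 ± 10.3 and 130 ± 30.8 CPM in the same order. The groups of both genes overlapped.

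Of 19 other calcium channels, buffers and pumps, 16 could be tested. CALM3, a gene for the calcium sensor calmodulin, differed by at most 0.09 on the log2 scale in any contrast. CALB1 encodes calbindin-D28k, the larger calcium buffer best known from kidney and neurons. Its mean was 0.420 ± 0.443, 0.561 ± 0.546 and 1.80 ± 1.42 CPM in WD_S, HHD_S and HHD (SD; n = 7, 8 and 7). Libraries held 0 to 106 counts of it, and its highest value, 4.63 CPM, was in HHD replicate 5. Its log2 fold change was -2.16 in WD_S against HHD (SE 0.664) and -1.63 in HHD_S against HHD (SE 0.605). Both were under an unadjusted p of 0.05 and did not pass after adjustment over all genes (edgeR quasi-likelihood adjusted p = 0.9997 and 0.9993). ITPR3, an intracellular calcium release channel, had a log2 fold change of 0.29 in WD_S against HHD (SE 0.133), under an unadjusted p of 0.05 and not past the adjusted test (edgeR quasi-likelihood adjusted p = 0.9997).

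The 3 claudins of the passive calcium route were all tested. CLDN15, a cation pore of the small intestine, had means of 49.7 ± 13.6, 42.3 ± 19.2 and 39.1 ± 7.37 CPM in WD_S, HHD_S and HHD (SD; n = 7, 8 and 7). CLDN2, another cation pore, averaged 39.2 ± 14.3, 30.9 ± 18.0 and 34.1 ± 26.2 CPM in the same groups. Among 10 genes of phosphate and magnesium transport, 7 could be tested. CNNM4, a magnesium transporter of the basolateral membrane, and TRPM7, a magnesium and calcium channel, had log2 fold changes of 0.08 and -0.13 in WD_S against HHD_S and 0.11 and 0.16 in HHD_S against HHD. All 7 of this list were higher in HHD_S than in HHD, by 0.11 to 0.25 on the log2 scale, where 52.6% of all genes were higher; none passed at an unadjusted p under 0.05, where 1.81% of all genes did. In WD_S against HHD_S, 2 of the 7 were higher and 5 lower.

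Of 10 genes of calcium sensing and calcium hormones, 4 could be tested. STC2, a secreted glycoprotein of the stanniocalcin family, stood at -0.58 (SE 0.316) on the log2 scale in WD_S against HHD_S and at 0.38 (SE 0.307) in HHD_S against HHD, and neither value passed. FGFR1, which with klotho receives the phosphate hormone FGF23, stood at 0.18 (SE 0.206) and -0.27 (SE 0.204) on the log2 scale in these contrasts. From the list of CYP3A enzymes and ABCB1, known VDR targets, 1 gene could be tested: CYP3A39, a drug and sterol hydroxylase, at 2470 ± 1228 CPM in WD_S, 2338 ± 1136 CPM in HHD_S and 1750 ± 777.5 CPM in HHD (SD; n = 7, 8 and 7).

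Over the 22 pigs the 5 genes formed 10 pairs. Of these, 4 correlations of log2 CPM passed an adjusted p of 0.05 by both Pearson's and Spearman's measure. Correlations with other genes were also common. By Pearson's measure, adjusted over 675 relations, 34 of 135 tested list and marker genes passed with VDR, 29 with RXRA and 22 with CYP27A1. With ATP2B1 7 passed and with S100G 6. The 10 genes most like VDR, among 11026, had r of 0.88 or more, above that of RXRA. VDR and RXRA rose and fell together (r = 0.81, rho = 0.76; permutation p adjusted over 10 pairs 0.00020 and 0.00060). This held within pool 3 (r = 0.60, n = 13) and pool 4 (r = 0.97, n = 9), within WD_S, HHD_S and HHD (r = 0.93, 0.88 and 0.72), and without the 2 pigs farthest from the median of VDR (r = 0.82). CYP27A1 went with VDR (r = 0.65, rho = 0.61, adjusted permutation p 0.0033 and 0.0079; 0.77 in pool 3 and 0.72 in pool 4) and with RXRA (r = 0.62, rho = 0.73, adjusted permutation p 0.0048 and 0.00085; 0.67 and 0.81). Without the 2 farthest pigs these were 0.59 and 0.48. Within WD_S, HHD_S and HHD, r was 0.79, 0.55 and 0.64 with VDR and 0.82, 0.81 and 0.25 with RXRA.

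ATP2B1 was inversely related to RXRA over all pigs, but not within every group. The correlation was r = -0.54 and rho = -0.62 (adjusted permutation p 0.0219 and 0.0079; -0.69 in pool 3 and -0.43 in pool 4), and it was -0.45 without the 2 farthest pigs. Within groups r was -0.36 in WD_S, -0.80 in HHD_S and 0.11 in HHD, so the inverse relation did not hold among the HHD pigs. It did not pass without HHD_S replicate 7 (r = -0.44, adjusted permutation p = 0.109) or without HHD_S replicate 8 (r = -0.48, adjusted permutation p = 0.0525). With VDR the Pearson correlation did not pass (r = -0.42, adjusted permutation p = 0.082) and the Spearman correlation did (rho = -0.53, adjusted permutation p = 0.0264); r was -0.27, -0.78 and 0.12 within WD_S, HHD_S and HHD. With CYP27A1 neither passed (r = -0.47, rho = -0.44, adjusted permutation p 0.0505 and 0.067). No correlation of S100G with the other 4 genes passed, with r from -0.37 to 0.25 over all pigs. Within WD_S, HHD_S and HHD, its r was 0.013, -0.031 and -0.73 with VDR and -0.0020, -0.24 and -0.84 with RXRA. In the same order it was 0.83, 0.42 and -0.32 with ATP2B1 and 0.039, -0.67 and -0.24 with CYP27A1. These values within groups were not tested.

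**Figure D3:**
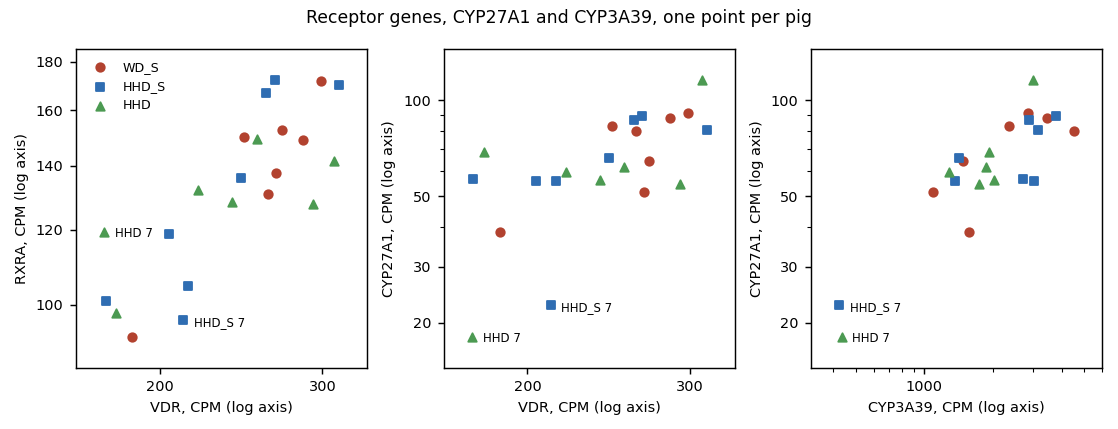
RXRA against VDR, CYP27A1 against VDR, and CYP27A1 against CYP3A39, in CPM on log axes, with 1 point per pig and groups by colour and shape. VDR and RXRA rise together across all groups, and HHD replicate 7 and HHD_S replicate 7 are lowest for both CYP27A1 and CYP3A39.

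Some summed cell type markers moved with VDR, RXRA, CYP27A1 or ATP2B1, and no marker list passed with S100G. Over 55 relations between the 5 genes and 11 summed marker lists, 12 passed an adjusted permutation p of 0.05 by Pearson's measure, and 6 of these also by Spearman's. The summed T and natural killer cell markers (9 of 9 genes tested) ran from 264 to 800 CPM in WD_S, 255 to 872 CPM in HHD_S and 404 to 670 CPM in HHD. They were inversely related to VDR (r = -0.58, rho = -0.61), RXRA (r = -0.65, rho = -0.68) and CYP27A1 (r = -0.64, rho = -0.56) and directly to ATP2B1 (r = 0.56, rho = 0.69), with adjusted permutation p of 0.035, 0.0146, 0.0146 and 0.035 for r. By rho all but CYP27A1 (adjusted permutation p = 0.0538) passed. Without the 2 farthest pigs the same 4 values of r were -0.56, -0.49, -0.49 and 0.44. Goblet cell markers, 1340 to 4174 CPM over 6 genes, were directly related to VDR (r = 0.69, rho = 0.63) and RXRA (r = 0.70, rho = 0.62). Each had an adjusted permutation p of 0.0115 for r. Fibroblast and smooth muscle markers, 624 to 3305 CPM over 10 genes, were directly related to VDR (r = 0.66, rho = 0.49) and RXRA (r = 0.57, rho = 0.45), with adjusted permutation p of 0.0146 and 0.035 for r; neither passed by rho. B and plasma cell markers, 858 to 2788 CPM over 8 genes, were inversely related to RXRA (r = -0.56, rho = -0.56) and CYP27A1 (r = -0.53, rho = -0.58), with adjusted permutation p of 0.035 and 0.049 for r, and by rho only CYP27A1 passed (adjusted permutation p = 0.0468). Distal small intestine markers were directly related to VDR (r = 0.57, rho = 0.43) and RXRA (r = 0.60, rho = 0.50), with adjusted permutation p of 0.035 and 0.0301 for r, and neither passed by rho. Enterocyte markers did not pass with any of the 5 genes, the nearest being VDR (r = 0.50, adjusted permutation p = 0.0723). The part of cell makeup in the shared variation of VDR, RXRA, CYP27A1 and ATP2B1 was not tested.

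Genes most like each of the 5, by Pearson r of log2 CPM over the 22 libraries among 11026 genes, are given as a description. For VDR they were APLP2 (0.92), MYO1D (0.91) and TPP1 (0.90). For RXRA they were NAA60 (0.88), RNPEPL1 (0.88) and PCDH1 (0.87). For CYP27A1 they included BRI3 (0.92) and PCK1 (0.91), and for ATP2B1 they were PBRM1 (0.81), UMAD1 (0.79) and API5 (0.78). PCK1, the gluconeogenic enzyme, was lowest in HHD replicate 7 (74.6 CPM) and HHD_S replicate 7 (162 CPM), the 2 pigs that were also lowest for CYP27A1.

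CYP3A39 was lowest in the same 2 pigs, at 434 CPM in HHD replicate 7 and 424 CPM in HHD_S replicate 7, and reached 4528 CPM elsewhere. Over all pigs CYP27A1 and CYP3A39 had r = 0.87 and rho = 0.72 (permutation p adjusted over 675 relations between members and single genes, 0.0023 and 0.0173). Without the 2 farthest pigs r was 0.66, and it was 0.90 in pool 3 and 0.65 in pool 4. CLDN15 went with VDR (r = 0.81, rho = 0.83) and RXRA (r = 0.85, rho = 0.85) in the same family, with adjusted permutation p of 0.0023 for each r. These pairs were some of many in that family. Of 135 genes, 34, 29 and 22 passed with VDR, RXRA and CYP27A1 by Pearson's measure, and 17, 19 and 8 by both measures.

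S100G was most like CMAS (0.83), a sialic acid enzyme, ADGRF1 (0.83), an adhesion receptor, and TMPRSS15 (0.83), which encodes enteropeptidase, the brush border protease of the upper small intestine. CUBN ran against it (r = -0.76, rho = -0.66; adjusted permutation p 0.0087 and 0.0251). The 2 pigs with the highest S100G had the lowest CUBN, 0.568 CPM in HHD replicate 5 and 1.18 CPM in HHD_S replicate 7, and without them r was -0.50. TMPRSS15 was 51.99 and 33.7 CPM in these pigs, within its overall range of 5.09 to 54.4 CPM. The row named TRPV5 had r = 0.74 with S100G (adjusted permutation p = 0.0101) but rho = 0.46 (adjusted permutation p = 0.160), and r was 0.36 without the 2 pigs, so the relation rests on them.

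**Figure D4:**
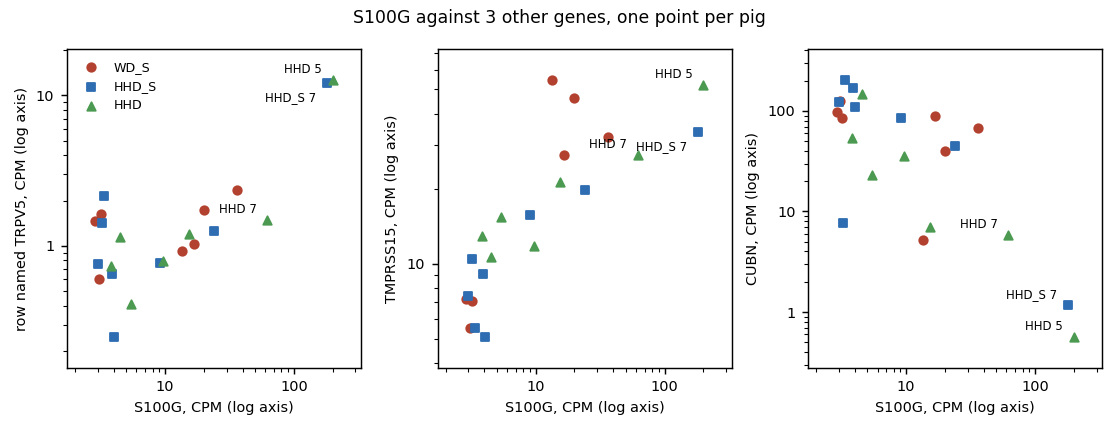
The row named TRPV5, TMPRSS15 and CUBN against S100G, in CPM on log axes, with 1 point per pig and groups by colour and shape. HHD replicate 5 and HHD_S replicate 7 stand apart at the highest S100G with the highest values of the row named TRPV5 and the lowest CUBN.

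Proximal and distal small intestine markers were both lowest of all pigs in HHD replicate 5, at 668 and 671 CPM. In HHD_S replicate 7 they stood at 831 and 894 CPM, so the proximal list was not low in that pig. Neither list passed with S100G (r = -0.26 and -0.35, adjusted permutation p = 0.389 and 0.218). The lymphocyte list (T and natural killer) peaked in HHD_S replicate 7 at 872 CPM and stood at 429 CPM in HHD replicate 5. Some single genes correlated with S100G set both pigs apart. ADA was 39.1 CPM in HHD replicate 5, 25.7 CPM in HHD_S replicate 7 and at most 9.83 CPM in any other pig. SLC26A3 (5.68 and 35.2 CPM), CA4 (6.90 and 14.9 CPM), CLCN1 and HENMT1 were lowest in HHD replicate 5 and next lowest in HHD_S replicate 7. These genes lie outside the rule for named genes and were added after their values were seen. Whether the sampled site along the intestine differed between pigs was not tested.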

How the data were processed

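Jejunal mucosa RNA was sequenced as single-end reads of 150 bases, per the labels' protocols, and processed with CLC Genomics Workbench on the pig assembly Sscrofa11.1; the sources used here do not state aligner settings or strand handling. The authors deposited unique exon read counts per gene, not normalized, in 1 table per library. Of 24358 genes, 17332 were named in the tables, 1050 through a table of gene names, and 5976 had no symbol. Positions are RefSeq gene spans.

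Counts as deposited were filtered with filterByExpr (minimum count 10), leaving 13626 genes, TMM-scaled and fitted with edgeR 4.0.16 in R 4.3.3 (robust quasi-likelihood; 3 groups with library pool as an additive term; 18 residual degrees of freedom; Benjamini-Hochberg adjustment over all genes tested). The pools, read from the names of the deposited tables, gave 0 genes at an adjusted p under 0.05. SEs were derived from the F statistic. The typical biological coefficient of variation was 25.9%. DESeq2 1.42.0, limma 3.58.1 (voom with quality weights on the libraries), other scalings and filters, single pools and left-out libraries were alternatives. Correlations were taken on log2 CPM (prior count 2), with 100000 two-sided permutations, and fewer where a library was left out in turn. Scripts were tested on simulated data.

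Genes named in the text were all members, the 2 most abundant genes of each pathway list with up to 3 at an unadjusted p under 0.05, the most abundant and absent markers, and the 3 genes most like each member. Of these, 2 genes are not reported here. Members and lists were chosen with earlier results of these data known. Each library was taken as 1 pig; relations with marker lists and single genes were added after seeing the data.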

Additional observations from a re-analysis of the deposited data

Results flagged for a closer look

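In each diet group the highest and lowest pig of VDR, RXRA, CYP27A1, S100G and ATP2B1 were compared with the rest of the group on the log2 scale by Dixon's gap ratio. Of the 15 sets tested, each 1 gene in 1 diet group, 3 held a pig that stood apart, where chance flags about 1 in 20. The sets share the same pigs and some of the genes were correlated, so they are not independent. VDR was 186.7 CPM in WD_S replicate 7, below the other 6 WD_S pigs. CYP27A1 was 22.7 CPM in HHD_S replicate 7 and 18.1 CPM in HHD replicate 7, each below all other pigs of its group. Summed T and natural killer cell markers were 800 CPM in WD_S replicate 7, 872 CPM in HHD_S replicate 7 and 670 CPM in HHD replicate 7, the highest value of each group. They were also high, at 788 CPM, in HHD_S replicate 5, which had VDR at 245 CPM and CYP27A1 at 66.0 CPM and was not flagged. The part of these markers in the low VDR and CYP27A1 was not tested.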

How the results depend on the processing

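The count of members passing the adjusted test was 0 in every setting run, for each contrast and for the 3 groups jointly. DESeq2 gave no adjusted p for S100G, so that gene has no DESeq2 verdict. Counts over all genes were small and moved: in WD_S against HHD_S, 0 genes became 2 without the pool term, 4 with DESeq2 and 1 with limma; in HHD_S against HHD, 0 became 1 with DESeq2. In WD_S against HHD, 1 gene became 0 with total counts, 0 in pool 3, 0 in pool 4, 2 with DESeq2, and 0 without HHD replicate 5 and HHD_S replicate 7 together. Over the 3 groups, 1 became 0 with total counts, 0 in either pool, 3 with DESeq2 and 0 without those 2 libraries. Leaving out 1 library in turn gave 0 to 2, 0 to 0, 0 to 1 and 0 to 1 genes, and 3 to 7 correlated pairs of members instead of 4 (7 without HHD replicate 5).

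S100G changed sign with its highest pigs. Leaving out 1 library in turn gave a log2 fold change of -1.51 to 0.75 in WD_S against HHD_S, -2.34 to 0.86 in HHD_S against HHD and -2.22 to 0.71 in WD_S against HHD; without HHD replicate 5 and HHD_S replicate 7 together these were 1.07, -1.04 and 0.034. In single pools it turned to 1.42 (pool 4, first contrast) and 1.16 (pool 3, second). With limma the first contrast shrank to -0.084 and the third to -0.64, and with only the 2 groups compared the first was -0.24; the third was -0.54 in pool 3 and -2.86 in pool 4. Other sign changes were of values near 0. CYP27A1 was -0.021 in WD_S against HHD_S with limma. In HHD_S against HHD, CYP27A1 was -0.011 in pool 3 and -0.12 to 0.27 over left-out libraries. VDR was 0.0085 with total counts, 0.23 in pool 4, 0.11 with limma and -0.079 to 0.058 over left-out libraries. RXRA was -0.036 in pool 3 and -0.014 to 0.13 over left-out libraries. ATP2B1 was -0.17 in pool 4, -0.018 with limma, -0.037 to 0.17 over left-out libraries and -0.086 without both libraries. The Pearson r of S100G and ATP2B1 ran from -0.027 (without HHD_S replicate 7) to 0.38. The cause of these changes was not tested. No paired analysis was possible because the groups hold different pigs and the replicate numbers, given in accession order, tie no pig to a pig of another group. Few counts limit what can be said of CYP24A1, the row named TRPV5 and CALB1, and the spread between 7 or 8 pigs limits all genes.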
